A study of Mus musculus with 2 samples.

Results

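Apolipoprotein and lipoprotein assembly genes were compared between control AML12 cells and AML12 cells made senescent with hydrogen peroxide. The 10 genes were Apoa1, Apoa2, Apoa4, Apob, Apoc1, Apoe, Apoh, Apom, Mttp and Lcat, taken by name from the 35275 genes of the count table. AML12 is a non-transformed mouse hepatocyte line that was derived from a mouse carrying a transforming growth factor alpha transgene, and the labels give its origin as male CD-1 liver at 3 months of age. The senescent cells received hydrogen peroxide in serum-free medium for 1 h on each of 6 days. The dose was 1 mM on day 1 and 0.75 mM afterwards, and the cells recovered for 23 h between exposures in complete medium with serum, insulin, transferrin, selenium and dexamethasone. The control cells were untreated. For either condition a single poly(A)-selected library was made from the pooled RNA of 3 samples.

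Lipoproteins carry lipids in the plasma around protein scaffolds. Hepatocytes build very low density lipoprotein on apolipoprotein B, which is loaded with triglyceride in the endoplasmic reticulum by the microsomal triglyceride transfer protein, and they secrete apolipoprotein A-I, the main protein of high density lipoprotein, which is matured in the plasma by lecithin-cholesterol acyltransferase. Smaller exchangeable apolipoproteins move between the particles and steer them to lipases and receptors. The liver is a main source of these proteins.

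Of these genes, 1 passed the threshold used here. Apoa1 fell from 2026 reads in the control library to 197 in the senescent library, while Apob, the scaffold of very low density lipoprotein, had 22158 and 25094 reads. Apoa2, Apoa4 and Apom were at or near 0 in both libraries, and Apoc1 and Lcat had fewer than 20 reads in each. The control library held 28021941 reads and the senescent library 25738075. Levels are given as CPM, the reads of a gene per unit of library size, after scaling by the TMM method, with the exact Poisson 95% interval, and log2 ratios are senescent over control with a Clopper-Pearson 95% interval. The intervals describe counting error alone, since each condition had 1 library. Amplified reads that carry no molecular identifier do not each stand for a separate molecule, so even the counting error can be understated. There were no replicate libraries, so no test was run and each ratio compares 2 libraries, not the conditions. In bulk RNA, fewer cells with a transcript and less of it per cell cannot be told apart. A gene with 10 or more reads in the 2 libraries together is called tested, which names a read filter and no significance test, and 14383 genes were, among them 7 of the 10. It was counted as lower or higher when its log2 ratio was past 1.5 in that direction with an interval that did not reach 0.

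The label of hepatocyte was checked against 17 hepatocyte markers, of which 16 were tested, 2 lower and 3 higher. Of all 14383 genes tested, 5.6% were lower and 2.71% higher, to be read beside this and the counts of other markers. Albumin (Alb) had 32076 control and 2917 senescent reads (log2 ratio -3.23), haptoglobin (Hp) had 2886 and 88 (-4.79), transthyretin (Ttr) had 23146 and 10486 (-0.91), and the keratin gene Krt8 had 119403 and 144783 (0.51). Krt18 (40512 and 60941 reads, 0.82) and Rbp4 (6479 and 3391, -0.70) also had many reads. Of the 16 tested, 8 had a negative and 8 a positive ratio, with a median of -0.06. Some other markers, named after their values were seen, were scarce in both libraries. Transferrin (Trf) had 26 and 17 reads, fetuin-A (Ahsg) 7 and 16, and the fibrinogen gene Fgg 0 and 8. The genes counted as higher had few control reads. Serpina1e had 2 control and 26 senescent reads (3.36), Serpina1c had 4 and 14 (1.78), and Fga had 8 and 34 (2.17). Of the markers of other cells, the macrophage genes Adgre1, Clec4f and Marco and the fibroblast genes Col1a2, Col3a1 and Lum had no read in either library. The summed level of 8 macrophage markers was 194 CPM in control cells and 82.1 in senescent cells, nearly all of it Cd14 (5551 and 1879 reads, -1.33). Of the 4 macrophage markers tested 0 were lower and 2 were higher, Csf1r with 15 and 40 reads (1.58) and Ptprc with 27 and 76 (1.68). The 8 fibroblast and stellate cell markers summed to 0.928 and 0.363 CPM, and the 1 tested, Col1a1, was lower with 21 reads and 1 (-3.29). The 6 endothelial markers summed to 0.447 and 1.49 CPM, and the 1 tested, Vwf, was higher with 8 and 24 reads (1.69). The 6 cholangiocyte markers were abundant in both libraries, at 1995 and 1479 CPM, with Epcam at 0 and 1 reads. Apoa4, Apob and Mttp are also genes of enterocytes, and the 7 enterocyte markers summed to 153 and 251 CPM, mostly Vil1, with Sis at 0 in both libraries and Cdx2 at 1 and 0 reads. The part of these markers in the results was not tested.

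The promoters of Apoa1, Apob and Apoh are shown because these genes had the lowest ratio, the most reads and the second lowest ratio of the group. RefSeq promoter windows on GRCm38.p6, from 250 bases before to 50 bases after a transcript start, were matched for 9 of the 10 genes, in 12 windows. Apoc1 was not matched. No protein binding was measured in this series, and a match is a description of letters. Capitals mark TATAAA, a motif searched on both strands. The windows are chr9:46228380-46228679 on the plus strand for Apoa1, chr12:7977427-7977726 on the plus strand for Apob and chr11:108395047-108395346 on the plus strand for Apoh. RefSeq starts can differ from the gene starts given below from GENCODE. The Apoh window lies inside its GENCODE gene span of 108343354 to 108414396.
Apoa1: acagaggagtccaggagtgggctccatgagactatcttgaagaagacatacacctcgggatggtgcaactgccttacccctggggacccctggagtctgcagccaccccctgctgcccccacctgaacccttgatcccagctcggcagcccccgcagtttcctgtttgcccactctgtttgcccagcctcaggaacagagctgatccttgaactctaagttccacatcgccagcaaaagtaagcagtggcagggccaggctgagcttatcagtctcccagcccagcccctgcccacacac
Apob: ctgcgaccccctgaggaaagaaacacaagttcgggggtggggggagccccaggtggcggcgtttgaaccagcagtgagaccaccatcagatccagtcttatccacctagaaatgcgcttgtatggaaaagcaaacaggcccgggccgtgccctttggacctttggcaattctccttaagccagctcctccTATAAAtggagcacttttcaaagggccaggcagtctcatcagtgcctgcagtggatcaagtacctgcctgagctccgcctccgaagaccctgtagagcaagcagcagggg
Apoh: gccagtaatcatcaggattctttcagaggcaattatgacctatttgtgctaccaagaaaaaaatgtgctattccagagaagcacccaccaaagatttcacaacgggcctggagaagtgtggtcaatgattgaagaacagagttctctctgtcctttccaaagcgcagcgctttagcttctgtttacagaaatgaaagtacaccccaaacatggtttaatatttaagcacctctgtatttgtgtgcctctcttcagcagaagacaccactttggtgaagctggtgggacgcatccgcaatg

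TATAAA was found in 3 of the 12 windows, those of Apob, Apoa2 and Apoe, and in 13.6% of all 32851 promoter windows of the same length. In the Apob window it lies at -60 to -55 from the RefSeq transcript start. That start lies downstream of 7977648, the gene start in the GENCODE annotation. The Apoa1 and Apoh windows do not hold these letters. CAAAGTCCA, an HNF4 motif, and the DR1 direct repeat of nuclear receptors were also searched. They were found in none of the 12 windows, and in 0.475% and 0.0396% of all windows. Only exact letters were searched, and at such shares a match in 12 windows would be rare. The absence therefore shows no lack of looser forms of these sites.

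Among the genes of high density lipoprotein in the group, only Apoa1 and Lcat had enough reads to be tested, and Apoa1 passed the threshold. Apoa1 (ENSMUSG00000032083, chromosome 9 from 46228580 to 46230466 of GRCm38, plus strand) had 69.7 CPM (66.7 to 72.8) in control cells and 7.94 CPM (6.87 to 9.13) in senescent cells. The level was 8.73-fold lower in the senescent library, with a log2 ratio of -3.13 (-3.35 to -2.92). Among the 14383 tested genes, 805 (5.6%) were counted as lower and 118 had a lower ratio than Apoa1. The study placed Apoa1 in lipid terms that it drew from these same libraries, so its count is not independent evidence of that direction.

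Apoa2 (ENSMUSG00000005681, chromosome 1 from 171225054 to 171226379), which encodes the second protein of high density lipoprotein, had 0 control and 5 senescent reads. Its 5 reads set against a floor of 3 reads in the control library, 0.103 CPM, were at least 1.95-fold higher. This leaves out the counting error of the 5 reads, with which the interval of its log2 ratio starts at 0.10, and the gene was not tested. Apoa4 (ENSMUSG00000032080, chromosome 9 from 46240696 to 46243459), which encodes an exchangeable apolipoprotein of intestine and liver, had 1 read in each library. Of its exon bases, 34.8% overlap the antisense gene Gm10680, which had no read in either library. Apom (ENSMUSG00000024391, chromosome 17 from 35128997 to 35132050), which encodes the carrier of sphingosine-1-phosphate on high density lipoprotein, had 3 control reads and 1 senescent read. No difference in Apoa4 or Apom was detectable at this depth. Lcat (ENSMUSG00000035237, chromosome 8 from 105939551 to 105943382) had 15 and 18 reads, or 0.516 CPM (0.289 to 0.851) and 0.726 CPM (0.430 to 1.15). Its log2 ratio of 0.46 had an interval of -0.58 to 1.58, within which neither direction is set apart.

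**Figure D1:**
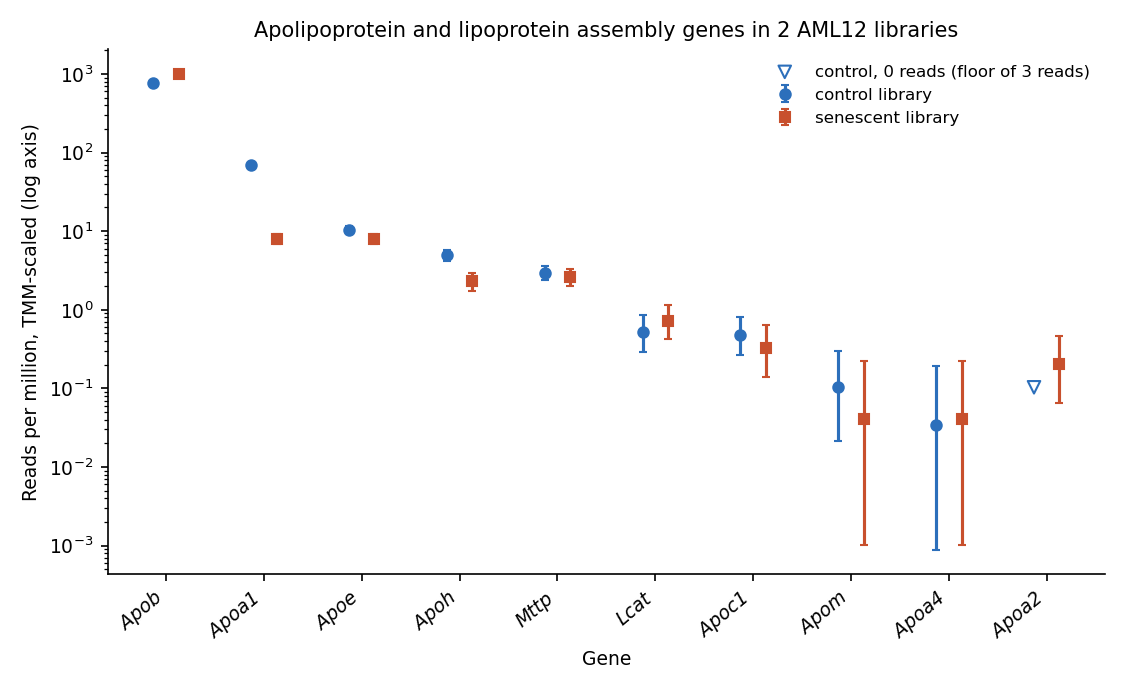
Level of the 10 genes in the control library (circles) and the senescent library (squares), in TMM-scaled CPM on a log axis. Bars are exact Poisson 95% intervals, 1 library per condition, and the triangle is the floor of 3 reads, drawn where a library had 0. Only the Apoa1 points are separated by a wide gap, at 69.7 and 7.94, and the points of Apom, Apoa4 and Apoa2 rest on 5 reads or fewer.

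The genes of the apolipoprotein B particle did not pass the threshold. Apob (ENSMUSG00000020609, chromosome 12 from 7977648 to 8016835) had 762 CPM (752 to 772) in control cells and 1012 CPM (999 to 1024) in senescent cells, with a log2 ratio of 0.41 (0.38 to 0.44). The counting intervals of the 2 libraries did not overlap, and the ratio stayed far from the threshold of 1.5. An interval wholly above 0 was found for 34% of all genes tested. Apob was among the most heavily read genes of the table, with 134 of the tested genes above it in control cells and 95 in senescent cells. Mttp (ENSMUSG00000028158, chromosome 3 from 138089854 to 138144968), which encodes the large subunit of the microsomal triglyceride transfer protein, had 86 and 64 reads. Its level was 2.96 CPM (2.37 to 3.65) and 2.58 CPM (1.99 to 3.30), with a log2 ratio of -0.19 (-0.69 to 0.29). Of its exon bases, 7.36% overlap Trmt10a on the opposite strand, which had 306 and 358 reads, and the use of strand in the counting is not given in the sources used here.

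The remaining exchangeable and soluble apolipoproteins had fewer reads. Apoe (ENSMUSG00000002985, chromosome 7 from 19696109 to 19699188), which encodes the ligand that directs remnant particles to receptors, had 298 and 198 reads, or 10.2 CPM (9.12 to 11.5) and 7.98 CPM (6.91 to 9.18). Its log2 ratio was -0.36 (-0.63 to -0.10). Apoc1 (ENSMUSG00000040564, chromosome 7 from 19689481 to 19692660), which encodes an inhibitor of receptor uptake and of lipases, had 14 and 8 reads and a log2 ratio of -0.53 (-2.04 to 0.78). Apoh (ENSMUSG00000000049, chromosome 11 from 108343354 to 108414396), which encodes beta-2-glycoprotein I, a phospholipid-binding plasma protein, had 144 and 57 reads. This was 4.95 CPM (4.18 to 5.83) in control cells and 2.30 CPM (1.74 to 2.98) in senescent cells, and the intervals did not overlap. The log2 ratio of Apoh was -1.10 (-1.58 to -0.66), short of the threshold of 1.5 but past a threshold of 1, which 9.98% of all genes tested passed in this direction and 5.09% in the other. Apoe and Apoh thus lay below 0 with intervals without 0, as 34.6% of all genes tested did.

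**Figure D2:**
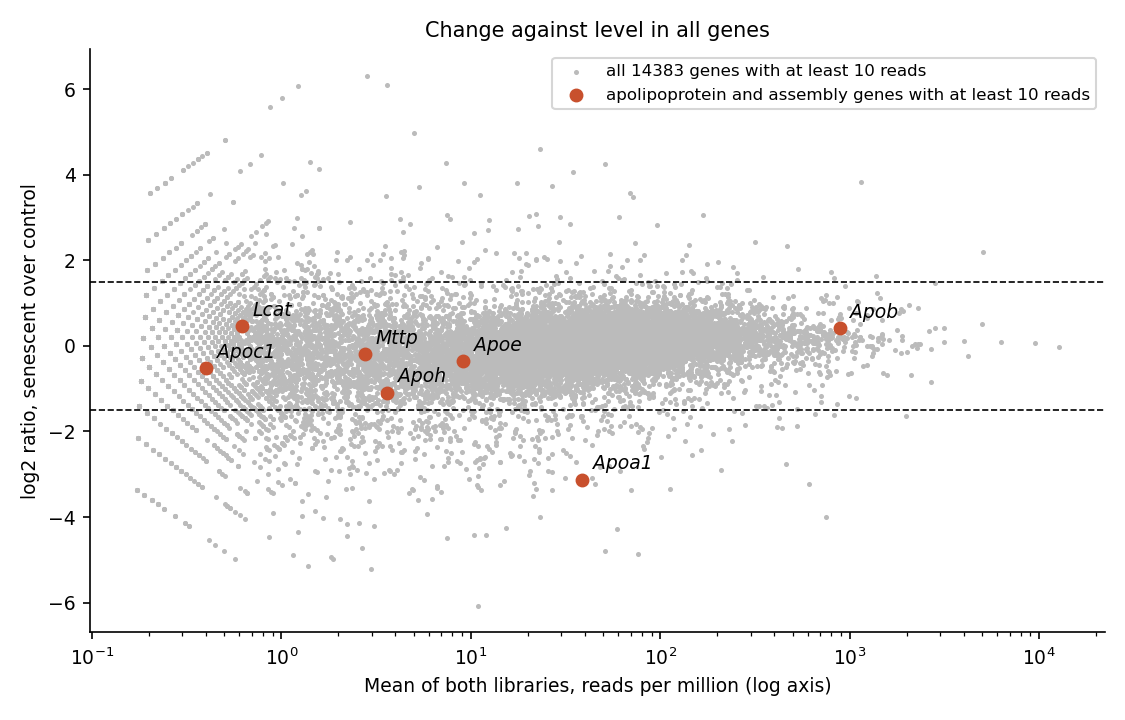
Log2 ratio of senescent over control against the mean level of both libraries in CPM, for 14383 genes with at least 10 reads (grey points) and for the 7 genes of the group among them (large points). Dashed lines mark a log2 ratio of 1.5 in either direction. Apoa1, at -3.13, lies below the lower line, and the other 6 lie between -1.10 and 0.46.

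Taken as a list, 1 of the 7 genes tested was lower and 0 were higher, against 5.6% and 2.71% of all genes. The median log2 ratio of the 7 genes was -0.36, beside -0.02 for all genes tested. These values describe the 7 genes with at least 10 reads and not the 3 others.

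Compared per length, the order of the genes differed between the libraries at its top. Levels per length are RPKM, the CPM divided by kilobases of exon, computed with the summed length of all annotated exons, so that they depend on the transcript models. In the control library Apoa1 had 56.4 RPKM (53.9 to 58.9) and Apob 54.7 RPKM (54.0 to 55.4), and these intervals overlapped. In the senescent library Apob had 72.6 RPKM (71.7 to 73.5) and Apoa1 6.43 RPKM (5.56 to 7.39). Apob therefore stood at 0.970 times the level of Apoa1 per length in control cells and at 11.3 times in senescent cells. Apoe followed in both libraries, with 4.79 RPKM (4.26 to 5.37) and 3.73 RPKM (3.23 to 4.29), and then Apoh, with 3.11 RPKM (2.62 to 3.66) and 1.44 RPKM (1.09 to 1.87). In both libraries the intervals of Apoe and Apoh did not overlap each other or the genes above them. Apoc1, Mttp and Lcat lay between 0.384 and 0.647 RPKM in control cells and between 0.416 and 0.541 RPKM in senescent cells, and their intervals overlapped within each library. Mttp stood far below Apob per length, at 0.477 RPKM (0.381 to 0.589) in the control library and 0.416 RPKM (0.320 to 0.531) in the senescent library.

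Counts set against Apob within a library need no scaling between libraries. Apoa1 took 8.38% (8.03 to 8.73, Clopper-Pearson) of the reads on Apoa1 and Apob in control cells and 0.779% (0.674 to 0.895) in senescent cells. The same share was 1.33% (1.18 to 1.49) and 0.783% (0.678 to 0.899) for Apoe. For Apoh it was 0.646% (0.545 to 0.760) and 0.227% (0.172 to 0.294). The intervals of these 3 genes did not overlap between the libraries. Apob itself had a log2 ratio of 0.41, so a gene with an unchanged level also falls in this share. How many of all genes shift as far was not counted. The share of Mttp was 0.387% (0.309 to 0.477) and 0.254% (0.196 to 0.325), and its intervals overlapped, as did those of Apoc1 and Lcat. In senescent cells the read counts of Apoa1 and Apoe were nearly equal, at 197 and 198, where the control had 2026 and 298. Apob alone made up 89.5% (89.2 to 89.9) of the reads on the 10 genes in control cells and 97.9% (97.7 to 98.0) in senescent cells. A ratio within a library shows unequal change and not that Apob was constant.

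**Figure D3:**
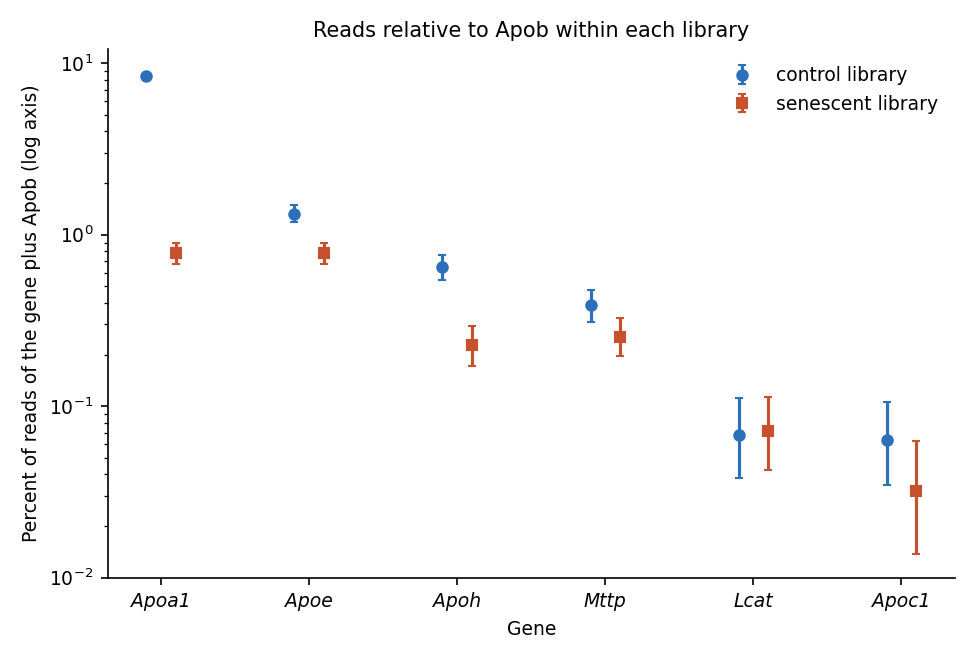
Reads of each gene as a percentage of the reads on that gene plus Apob, on a log axis, in the control library (circles) and the senescent library (squares), with Clopper-Pearson 95% intervals. The points of Apoa1 (8.38 and 0.779), Apoe (1.33 and 0.783) and Apoh (0.646 and 0.227) are separated, and the intervals of Mttp, Lcat and Apoc1 overlap.

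A pair of gene clusters holds 4 of the 10 genes, and neighbours could be read beside them. Apoa1 and Apoa4 lie with Apoc3 and Apoa5 in 43.3 kb of chromosome 9. Apoc3, which encodes an inhibitor of lipoprotein lipase, had 8 control reads and 1 senescent read, a log2 ratio of -2.01 with an interval of -8.24 to 0.13, and with 9 reads in all it was not tested. Apoa5, which encodes a protein that raises lipolysis of triglyceride, had 1 and 5 reads. Apoa1 was thus the 1 gene of this cluster with enough reads to be tested. The genes beside the cluster had positive ratios, at 0.34 for Pafah1b2, 0.50 for Sik3, 0.58 for Zpr1 and 0.28 for Bud13. A positive ratio was found for 7038 of all 14383 genes tested. Apoe and Apoc1 lie with Apoc4 and Apoc2 in 27.6 kb of chromosome 7. Apoc2, which encodes the activator of lipoprotein lipase, had 411 and 343 reads and a log2 ratio of -0.03 (-0.24 to 0.18), close to the median of all genes. Of its exon bases, 79.5% are shared with Gm44805, a read-through gene model on the same strand. Apoc4 had 9 and 6 reads (-0.31, interval -2.13 to 1.30). No apolipoprotein gene of the Apoe cluster passed the threshold, and of the flanking genes Clptm1 (0.02), Tomm40 (0.23) and Relb (-0.69) did not either. Most genes did not, as 5.6% of all genes tested were lower and 2.71% higher.

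**Figure D4:**
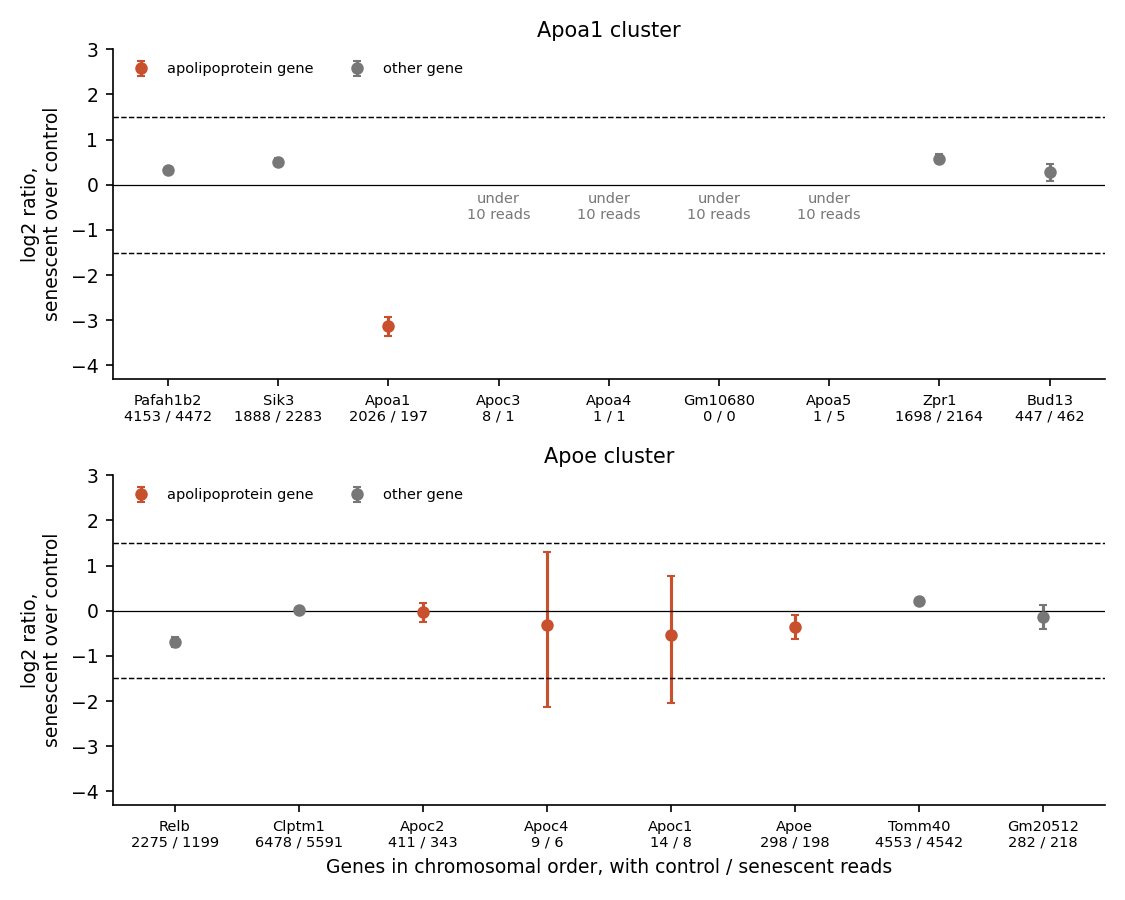
Log2 ratio of senescent over control for the genes of the Apoa1 cluster (upper panel) and the Apoe cluster (lower panel) with 2 annotated genes on each side, in chromosomal order, with 95% Clopper-Pearson intervals and the control and senescent reads under each name. Dashed lines mark 1.5 in either direction. Genes with under 10 reads, which are Apoc3, Apoa4, Gm10680 and Apoa5, have no point, and of the points drawn Apoa1, at -3.13, is the 1 past a line.

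Of 8 further apolipoprotein genes, 5 were tested, with a median log2 ratio of -0.31. Of the 5, 1 was lower and 0 were higher, beside 5.6% and 2.71% of all genes tested. Apon, which encodes a plasma apolipoprotein, fell from 83 to 13 reads (-2.36, interval -3.41 to -1.59). Clu, which encodes clusterin or apolipoprotein J, a secreted chaperone, had more reads than any gene of the group of 10. It had 46990 control and 74321 senescent reads, or 1616 and 2997 CPM, and its log2 ratio of 0.89 (0.87 to 0.91) did not pass 1.5. Apod had no read in either library.

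Of 20 genes for the assembly and secretion of apolipoprotein B particles, 16 were tested, with a median log2 ratio of -0.29. Of the 16, 1 was lower and 0 were higher, beside 5.6% and 2.71% of all genes tested. Pla2g12b, which encodes a catalytically inactive phospholipase needed for particle lipidation, fell from 25 to 3 reads (-2.50, interval -5.20 to -1.12). Of the 16 ratios 13 were negative, beside 7345 of all 14383 genes tested, and most of the 13 did not pass 1.5. Cideb, which encodes a lipid droplet protein that takes part in lipidation, had 1038 and 381 reads (-1.21, interval -1.39 to -1.05). Lpcat3, which encodes an acyltransferase that makes polyunsaturated phospholipid, had 4514 and 1845 (-1.06, interval -1.14 to -0.98), and the triglyceride synthase gene Dgat2 had 1472 and 688 (-0.87). For Dgat1 the ratio was -0.18. P4hb, which encodes protein disulfide isomerase, the small subunit of the triglyceride transfer complex, had 33718 and 23724 reads (-0.28, interval -0.30 to -0.25). P4hb thus had far more reads than its partner Mttp in both libraries. The ratio was 0.11 for Sar1b, 0.11 for Mia2, 0.05 for Surf4, -0.38 for Mia3 and -0.30 for Klhl12, whose products act in export from the endoplasmic reticulum. Ces1d had no read in either library, and Aadac had 2 reads in each.

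Of 10 genes that form or remodel high density lipoprotein, 7 were tested, with a median of 0.15. Of the 7, 0 were lower and 0 higher, beside 5.6% and 2.71% of all genes tested. Scarb1, which encodes the receptor that takes up its cholesteryl esters, had 764 and 1039 reads (0.67, interval 0.54 to 0.81). Bmp1, which encodes the protease that cleaves proapolipoprotein A-I, had 3669 and 3599 (0.20, interval 0.14 to 0.27). Abca1, which encodes the exporter that lipidates apolipoprotein A-I and which was chosen after its values were seen, had only 52 and 28 reads (-0.65, interval -1.38 to 0.03). Abcg1, Lipg and Pon1 had between 0 and 2 reads in each library.

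Of 12 genes of lipoprotein receptors and plasma lipolysis, 10 were tested, with a median of -0.06. Of the 10, 1 was lower and 0 were higher, beside 5.6% and 2.71% of all genes tested. Lpl, the gene for lipoprotein lipase, fell from 126 to 24 reads (-2.12), and the study listed it as lowered from these same libraries. The receptor genes named here had many reads and ratios within 1. Vldlr had 6188 and 6283 reads (0.25, interval 0.20 to 0.30), and Lrp1 had 1480 and 812 (-0.64, interval -0.76 to -0.51). Lmf1, which encodes a chaperone of lipases, had 818 and 377 (-0.89, interval -1.07 to -0.71).

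Of 29 genes for regulators of apolipoprotein genes, all 29 were tested. Of these, 8 were lower (27.6%, beside 5.6% of all genes) and 1 was higher (3.45%, beside 2.71%), and the median log2 ratio was -0.50. The list was chosen with earlier results of these data known, so its shares are a description and not independent evidence. The lower genes were Nr5a2 (-3.27), Mlxipl (-2.61), Foxa3 (-2.50), Ppargc1a (-2.42), Onecut1 (-2.17), Rora (-2.10), Foxa1 (-1.93) and Prox1 (-1.63). The study's pathway lists, drawn from these same libraries, hold Nr5a2, Mlxipl, Ppargc1a, Rora and Foxa1 among the lowered genes and Nr1d1 among the raised ones, so these counts are not independent evidence of direction. Nr1d1, which encodes the repressor REV-ERB alpha of the clock, rose from 124 to 413 reads (1.96, interval 1.67 to 2.27). Hnf4a, which encodes a nuclear receptor that binds many apolipoprotein promoters, had 8187 and 7705 reads and a log2 ratio of 0.14 (0.10 to 0.19). Foxa2, which encodes a forkhead factor of hepatocytes, had 2032 and 1832 (0.08, interval -0.01 to 0.17). Nr1h3, the gene for liver X receptor alpha, had 1126 and 427 reads (-1.17, interval -1.33 to -1.01), Ppara had 1062 and 438 (-1.05, interval -1.21 to -0.89) and Cebpa 1993 and 626 (-1.44, interval -1.57 to -1.31). None of these 3 passed 1.5. Total-count scaling moved the median ratio of all genes by -0.11 relative to TMM, which is enough to turn the sign of ratios such as those of Surf4 and Foxa2. It counted 12 in place of 11 genes of the 5 other lists as lower, the added gene being Cebpa.

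**Figure D5:**
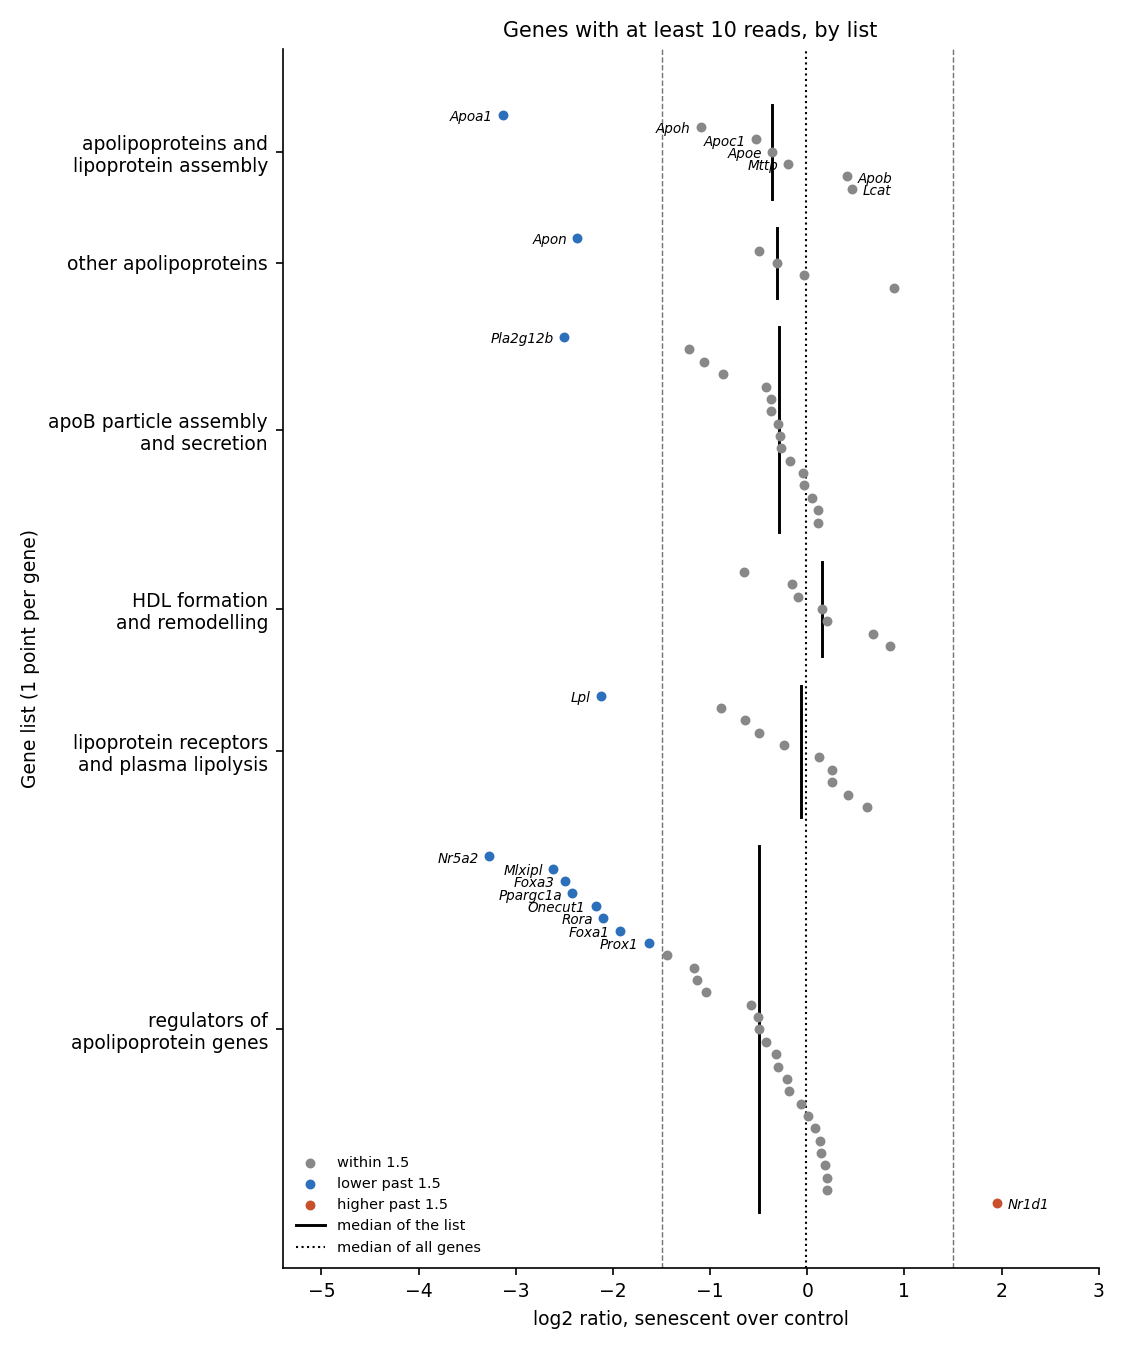
Log2 ratio of senescent over control for each gene with at least 10 reads (1 point per gene) in the group of 10 and in 5 other lists of lipoprotein genes. Black lines are list medians, the dotted line is the median of all genes at -0.02, and dashed lines mark 1.5 in either direction. The list of regulators holds 8 of the points past the lower line, and Nr1d1 is the 1 point past the upper line.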

How the data were processed

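RNAseq was measured in 1 control and 1 senescent AML12 library, each prepared after pooling 3 samples. The authors deposited un-normalized read counts per Ensembl gene. Per the submitters' processing notes, CASAVA, STAR, DESeq2, edgeR and mm10 were used, without stated roles or versions. The counting tool, annotation and use of strand are not given in the sources used here. Columns were assigned by the initials of the sample titles. Symbols, positions and exon lengths came from GENCODE M21 on GRCm38, which gave a symbol for 34490 of 35275 genes, and promoter sequences from RefSeq.

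Counts were scaled by TMM (edgeR 4.0.16, R 4.3.3), and the factors were 1.04 (control) and 0.964 (senescent). Log2 ratios had a prior count of 1 in proportion to library size. Intervals used scipy 1.17.1, tables pandas 2.3.3 and numpy 2.4.6, and plots matplotlib 3.10.9, under Python 3.11.15. With 1 library per condition no test was possible. The ratios and intervals were run on simulated data with known changes. A required outcome was set only for the simulation without variation between cultures, so it bears on counting error alone. Alternatives were total-count, DESeq2 1.42.0 and upper-quartile scaling, other read filters, prior counts and thresholds, and intervals widened for an assumed variation between cultures.

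The genes and lists were chosen with earlier results of these data known. The text names all 10 genes, the genes of the clusters and, of the other lists, the genes counted as lower or higher, with examples among genes with a mean of at least 500 scaled reads or at or under 3 reads in both libraries. Some genes and a motif are not reported here and are left out of the lists' counts and medians.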

Additional observations from a re-analysis of the deposited data

How the results depend on the processing

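The ratios of the 7 tested genes kept their sign and their side of the threshold of 1.5 under each scaling and prior count that was run. Read filters and widened intervals leave a ratio unchanged by construction and bear only on whether a gene is tested or counted. Apoa1 was still counted as lower under each of them, and Apoc1 and Lcat were not tested with at least 100 reads. Apoa1 ranged from -3.23 to -3.10, Apob from 0.30 to 0.41 and Apoh from -1.20 to -1.05. The design cannot measure variation between cultures. For an assumed coefficient of variation of 0.1 the interval became -3.59 to -2.68 for Apoa1, 0.01 to 0.81 for Apob, -0.84 to 0.12 for Apoe and -1.72 to -0.50 for Apoh. For 0.4 it became -4.74 to -1.52 for Apoa1, -1.19 to 2.01 for Apob and -2.77 to 0.56 for Apoh, and 253 in place of 390 of all genes were higher. With a threshold of 1, 2 of the genes were lower, Apoa1 and Apoh, and 1435 of all genes were lower and 732 higher. With a threshold of 2, 460 were lower, 219 were higher and 0 of the other lipoprotein genes were higher, as Nr1d1 no longer passed. With at least 1 read in place of 10, 1 of the genes was higher, Apoa2, on its 5 reads. With at least 100 reads, 395 of all genes were lower and 141 higher, and Apon and Pla2g12b were no longer tested, which left 0 lower in their lists. With a prior count of 5, 259 of all genes were higher. No paired analysis was possible because each condition had 1 library.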
